A study of Homo sapiens with 2 samples.

Results

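The S100 proteins described here are 10 genes, S100A2, S100A4, S100A6, S100A7, S100A8, S100A9, S100A10, S100A11, S100A14 and S100P, of 19775 genes named on the array. Their members were all probe sets that the platform annotation assigns to these genes, which came to 13 probe sets, with 1 probe set for 7 genes and 2 for S100A6, S100A8 and S100A10. They were measured in Calu-3, a human lung adenocarcinoma line that grows as an epithelial sheet, on 2 Affymetrix expression arrays. One array held RNA from a culture under cyclic stretch for 18 h and the other RNA from a non-stretched culture labelled with the same 18 h. Both cultures were grown on flexible plates coated with type I collagen to about 80% confluence in medium with 10% serum. Stretch was applied as a sine wave of 2 s on alternating with 2 s off, with a minimum of 0.7% and a maximum of 20%. The labels name no genetic change in either culture, and the line is a cancer line rather than normal airway epithelium.

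S100 proteins are small calcium-binding proteins with paired EF-hand loops that usually act as dimers. Calcium exposes a surface through which they grip other proteins, among them annexins, ezrin, non-muscle myosin and cytoskeletal adaptors, and some are released and bind cell-surface receptors. Most of the genes lie in a cluster on human chromosome 1, interleaved with genes of the epidermal differentiation complex, and several are known as markers of squamous, inflamed or invasive epithelium.

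The upstream sequences below are those of the measured genes with the highest differences (S100A4 and S100A14), of their cluster neighbours S100A2 and S100A6, and of S100P, the measured member with a lower stretched signal. They are the 250 bases before the annotated transcription start, written 5′ to 3′ on the gene's strand, from RefSeq (GRCh38.p14). All 10 genes had an entry, with 13 windows in all, since S100A2 and S100A8 have several starts; for S100A2 the more upstream start is shown. Capitals mark the letters of 4 promoter motifs searched on both strands: TGACTCA (the AP-1 site), TATAAA (the TATA box), GGGCGG (the GC box) and CCAAT.
S100A4, chr1:153545807-153546056, minus strand: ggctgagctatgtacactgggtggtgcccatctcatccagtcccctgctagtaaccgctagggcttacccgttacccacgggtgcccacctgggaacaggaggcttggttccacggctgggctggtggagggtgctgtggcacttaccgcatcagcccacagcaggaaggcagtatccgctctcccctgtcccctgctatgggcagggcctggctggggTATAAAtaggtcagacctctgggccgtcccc
S100A14, chr1:153616326-153616575, minus strand: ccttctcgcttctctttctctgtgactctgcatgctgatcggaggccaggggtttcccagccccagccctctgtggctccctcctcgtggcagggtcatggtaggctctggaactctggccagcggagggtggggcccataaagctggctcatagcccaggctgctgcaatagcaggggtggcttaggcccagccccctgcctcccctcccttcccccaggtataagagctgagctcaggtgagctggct
S100A2, chr1:153565845-153566094, minus strand: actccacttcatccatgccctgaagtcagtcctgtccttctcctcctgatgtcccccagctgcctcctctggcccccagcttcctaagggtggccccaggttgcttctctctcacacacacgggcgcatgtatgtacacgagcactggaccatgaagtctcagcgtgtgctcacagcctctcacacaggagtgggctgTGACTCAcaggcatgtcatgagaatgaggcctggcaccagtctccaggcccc
S100A6, chr1:153535992-153536241, minus strand: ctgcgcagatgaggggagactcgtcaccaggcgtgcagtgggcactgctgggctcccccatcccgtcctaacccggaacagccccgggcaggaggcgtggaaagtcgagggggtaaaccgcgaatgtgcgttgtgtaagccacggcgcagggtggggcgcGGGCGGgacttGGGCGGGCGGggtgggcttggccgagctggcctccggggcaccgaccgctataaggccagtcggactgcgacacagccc
S100P, chr4:6693628-6693877, plus strand: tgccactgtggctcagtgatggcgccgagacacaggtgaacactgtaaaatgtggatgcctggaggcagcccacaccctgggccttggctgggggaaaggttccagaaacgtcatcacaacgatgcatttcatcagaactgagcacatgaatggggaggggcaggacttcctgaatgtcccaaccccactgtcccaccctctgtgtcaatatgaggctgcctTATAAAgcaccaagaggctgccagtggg

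TATAAA begins 31 bases before the start of S100A4 and 28 bases before that of S100P. It was present in 6 of the 13 windows (also S100A7, S100A8 and S100A9), and in 10.7% of all 35116 promoter windows of the same length. Overlapping windows of S100A8 hold the same TATAAA, 29 and 126 bases before their starts, so this site is counted more than once among the 6. The S100A6 window holds GGGCGG at 3 places, 90, 79 and 75 bases before the start, the last 2 overlapping. GGGCGG was present in 4 of the 13 windows (S100A6, S100A9, S100A10 and S100A11), against 42.6% of all windows. TGACTCA was found only in the upstream window of S100A2, 52 bases before the start, against 4.2% of all windows, and CCAAT only in a window of S100A8, against 32.0%. The S100A14 window held none of these 4 letter strings. These matches describe letters in the windows and do not show that a factor binds there.

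Of the 10 genes, 7 exceeded the floor in both arrays with their brightest probe set, and S100A7, S100A8 and S100A9 were below it in both. The floor is the median signal of each array's non-control probe sets, 28.4 in the stretched and 28.7 in the non-stretched array, and is used because no detection calls were used here. S100A4 was the only member at least 2-fold higher in the stretched array, and no member was at least 2-fold lower. Among all 13453 measured genes, 7.78% passed 2-fold upward and 7.49% passed it downward. With 7 measured members, 1 call is not a result about the family. The median log2 difference, stretched minus non-stretched, was 0.32 over these 7 genes and 0.005 over all measured genes. The stretched signal was higher in 6 of the 7 genes, and in 50.5% of all measured genes. With 1 array per condition there is no replicate, so no test between the conditions was possible, and every difference compares these 2 arrays. In RNA from a whole culture, fewer cells that make a transcript and less of it per cell cannot be told apart. As a yardstick, the SD of a single probe set's log2 difference was 0.36 over 5818 genes with a pair of bright enough probe sets, and 0.28 over 807 such genes among the brightest 10%. It covers probe noise and isoform differences, not variation between cultures.

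**Figure D1:**
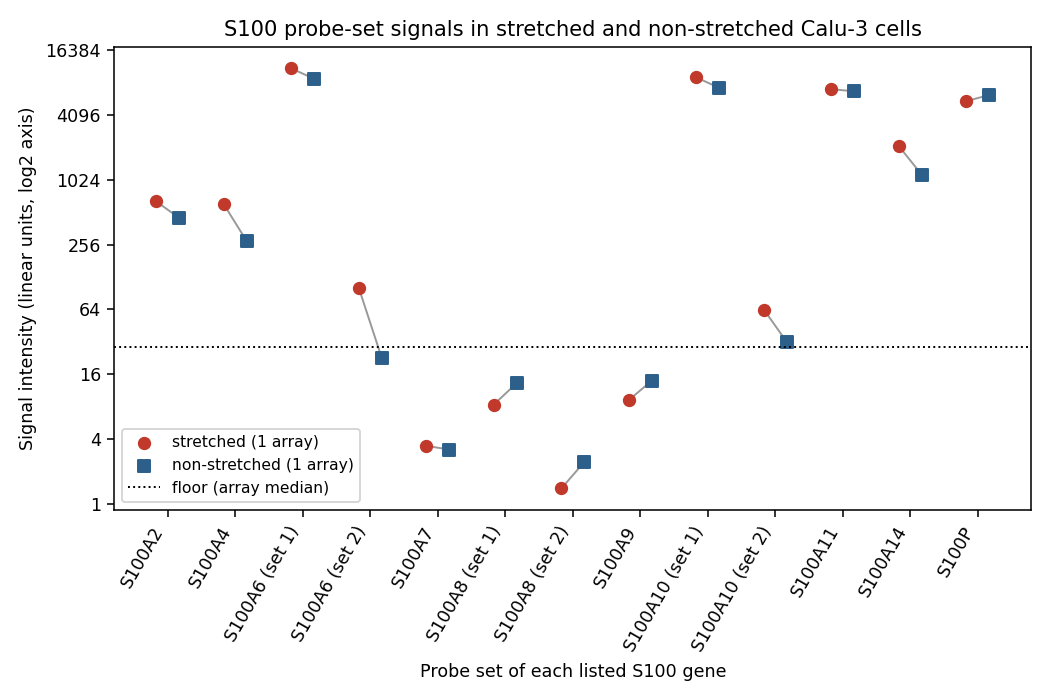
Signal intensity (linear units on a log2 axis) of the 13 probe sets of the 10 S100 genes, with the stretched array as circles to the left of the non-stretched array as squares, and the floor as a dotted line. S100A4, S100A14 and the second probe sets of S100A6 and S100A10 lie visibly higher in the stretched array, and S100A7, S100A8 and S100A9 lie below the floor in both arrays.

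S100A4, a protein that binds non-muscle myosin IIA and is known for its association with cell motility and metastasis, had a signal of 610.0 in the stretched array, against 277 in the non-stretched array. It was 2.20-fold higher, a log2 difference of 1.14, which is 3.16 times the SD of a single probe set. When measured genes were cut into 10 bands of equal size by signal, 7.51% of the 1345 genes in its band had a difference at least as high. S100A4 has 1 probe set, whose suffix (_s_at) marks probes that can also bind transcripts of related genes, so no member was called once probe sets with this suffix or _x_at were left out.

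S100A14, a member carried mainly by epithelial cells, had a signal of 2101 in the stretched array, against 1138 in the non-stretched array. The log2 difference was 0.88 (1.85-fold, 2.45 times the SD), just under the 2-fold line, and 6.69% of the 1345 genes in its signal band were at least as high. S100A2, a largely nuclear member first described as lost in breast tumours, had 647 in the stretched array, against 454 in the non-stretched array. Its log2 difference of 0.51 was 1.42 times the SD, and 26.9% of genes in its band were at least as high, so it does not stand clear of the other genes. At a 1.5-fold threshold S100A4 and S100A14 were the members called higher, 2 of 7 against 17.9% of all measured genes.

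S100A6 (calcyclin), which binds annexins and the calcyclin-binding protein CACYBP, had a signal of 11126 in the stretched array, against 8894 in the non-stretched array in its brighter probe set. The log2 difference was 0.32 (1.25-fold), 0.9 times the SD of 0.36 but above the 0.28 of the brightest genes. Its dimmer probe set had 102.0 in the stretched array, against 22.8 in the non-stretched array, where it lay below the floor, so that it was at least 3.55-fold higher. The size of the S100A6 difference thus depends on the probe set read.

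S100A10 is the member that forms a fixed complex with annexin A2 and brings plasminogen to the cell surface; it is unusual in having lost calcium binding. Its brighter probe set had 9165 in the stretched array, against 7324 in the non-stretched array, a log2 difference of 0.32 (1.25-fold). Its dimmer probe set had 63.8 in the stretched array, against 31.8 in the non-stretched array, just above the floor, a log2 difference of 1.003. S100A11, which pairs with annexin A1 and is found at membranes and in the nucleus, had 7129 in the stretched array, against 6812 in the non-stretched array. Its log2 difference of 0.07 was 0.18 times the SD, and it turned to -0.04 when the arrays were centred on their 75th percentiles.

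S100P, which binds ezrin and is abundant in many adenocarcinomas, had 5526 in the stretched array, against 6302 in the non-stretched array. It was the only measured member with a lower stretched signal, at a log2 difference of -0.19, which is within 1 SD of 0. Of the brightest 10% of measured genes, 25.7% were as low or lower. S100A6, S100A10, S100A11 and S100P all belong to that band, in which only 1.26% of 1346 genes passed 2-fold upward and 1.34% downward, and the central 90% of differences ran from -0.63 to 0.65. At 0.32, S100A6 and S100A10 were matched or exceeded by 20.4% and 20.3% of the genes in it. None of these 4 genes therefore stood outside the spread of equally bright genes.

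**Figure D2:**
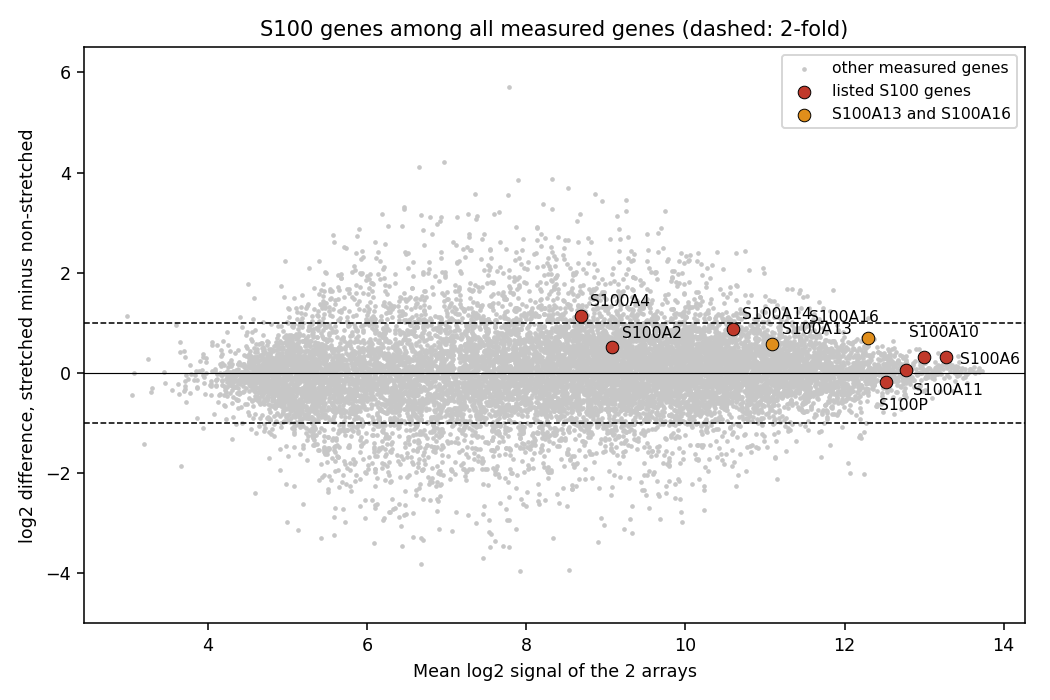
log2 difference (stretched minus non-stretched) against the mean log2 signal of the 2 arrays for all measured genes (grey), the 7 measured S100 members (red) and S100A13 and S100A16 (orange), with 2-fold marked by dashed lines. S100A4 alone lies above the 2-fold line, and the 4 brightest members lie between -0.19 and 0.32, where the grey cloud is narrow.

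Counted by probe set, 9 of the 13 were above the floor in at least 1 array, 8 of them in both. Of these 9, the probe set of S100A4 and the dimmer ones of S100A6 and S100A10 were at least 2-fold higher, against 8.66% of 24977 measured probe sets with a single gene. The S100A6 probe set was measured only through the stretched array, so it could not have come out lower. When the probe sets of a gene were averaged, S100A6 reached 1.08 on the log2 scale and was called with S100A4, 2 of 7 measured members. In that setting 1018 of all 13473 measured genes were called higher and 881 lower. The S100A6 mean includes the probe set that could not have come out lower.

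The secreted alarmins and antimicrobial members were at the bottom of the signal range in both arrays. S100A8 and S100A9, which together form calprotectin, the calcium- and zinc-binding protein of neutrophils and inflamed epithelium, had signals of 8.36 and 9.21 in the stretched array, against 13.3 and 14.0 in the non-stretched array in their brightest probe sets. The second S100A8 probe set had 1.39 in the stretched array, against 2.45 in the non-stretched array. S100A7 (psoriasin), an antimicrobial protein of keratinocytes, had 3.46 in the stretched array, against 3.20 in the non-stretched array. No fold is given for these genes, because a difference between signals below the floor cannot be read. In the stretched array no S100A7, S100A8 or S100A9 signal exceeded the floor, which is an array median and not a detection call.

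The members fall into groups along chromosome 1 in the RefSeq gene order (GRCh38.p14, used for order only), a grouping made after the values were seen. S100A10 and S100A11 are neighbours at one end. Then come the epidermal differentiation genes, then S100A9, S100A12, S100A8, S100A7A and S100A7, and then S100A6, S100A5, S100A4, S100A3, S100A2, S100A16, S100A14, S100A13 and S100A1. S100P lies on chromosome 4. In the run of 9 genes from S100A6 to S100A1, 6 were above the floor in both arrays, and all 6 had a higher stretched signal, by 0.32 to 1.14 on the log2 scale. Over all measured genes, 50.5% had a higher stretched signal and 7.78% passed 2-fold upward. The 6 genes were S100A2, S100A4, S100A6, S100A13, S100A14 and S100A16, of which only S100A4 passed 2-fold. Their direction held under each scaling tried. The centring offsets between the arrays were -0.02 (median), 0.11 (75th percentile) and -0.11 (spike-ins), the same for every gene. These are smaller in size than any of the 6 differences, so centring could not change a sign and adds nothing to the grouping.

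Beside the listed members, this run holds S100A16, with 6376 in the stretched array, against 3930.0 in the non-stretched array (log2 difference 0.70). Among the 1346 brightest genes, 4.23% were at least as high. S100A13, a member known for the unconventional export of fibroblast growth factor, had 2657 in the stretched array, against 1782 in the non-stretched array (0.58), and its second probe set differed by 0.52. S100A5 and S100A1 were below the floor in both arrays. S100A3 lay just above the floor in the stretched array at 29.3, against 7.10 in the non-stretched array, which is no measurable difference from the floor.

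The genes next to the run did not share one direction. Beyond S100A1, CHTOP and ILF2 had log2 differences of 0.49 and 0.35, SNAPIN -0.08 and NPR1 -0.76, and INTS3, a subunit of the Integrator complex, was at -1.23. On the other side, of the 5 genes from S100A9 to S100A7 only S100A7A was measured, with 84.8 in the stretched array, against 90.4 in the non-stretched array (-0.09). Its other probe set was below the floor in both arrays. Between S100A11 and S100A9 lie 47 protein-coding genes. The array named 24 of them and 6 were measured, 3 of them only through the stretched array. Of those 3, the cornified envelope genes IVL and SPRR3 were at least 2.11-fold and 5.70-fold higher, and SPRR1B was at least 1.503-fold higher. Measured only through the stretched array, these 3 genes could not have come out lower. KPLCE, SPRR4 and SPRR1A exceeded the floor in both arrays and stood at -0.04, 0.16 and 0.25 on the log2 scale. Beyond S100A10, THEM4, an acyl-CoA thioesterase, was 2.12-fold higher.

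**Figure D3:**
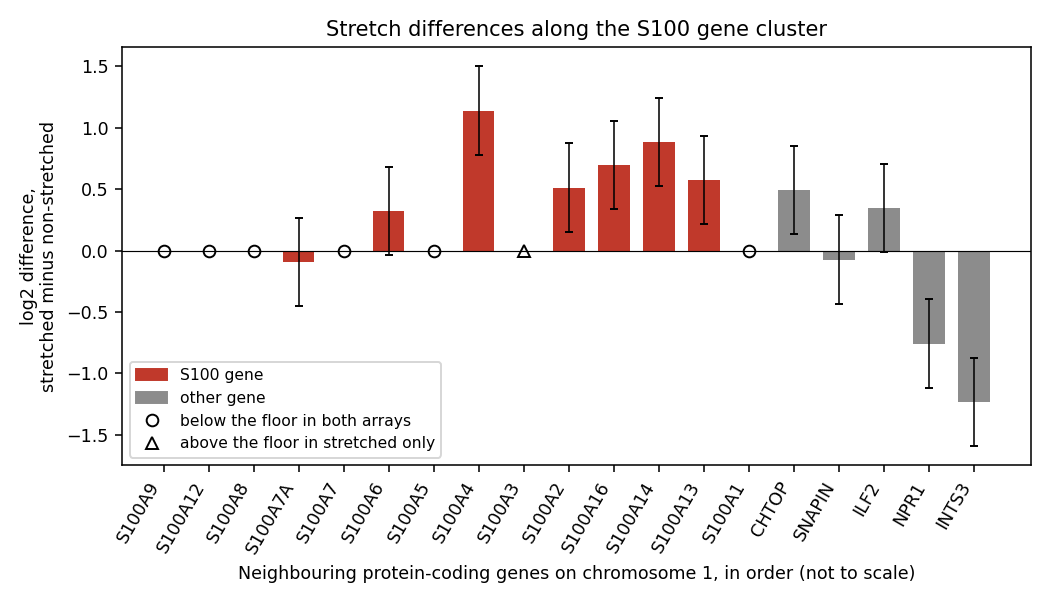
log2 difference (stretched minus non-stretched) of neighbouring protein-coding genes on chromosome 1 from S100A9 to INTS3, in gene order, with S100 genes in red, other genes in grey, and open symbols at 0 for genes without a measured difference; error bars are the SD of a single probe set, 0.36, not a replicate error. The 6 S100 genes from S100A6 to S100A13 that exceed the floor in both arrays lie above 0, while the next 5 genes run from 0.49 down to -1.23.

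Across the rest of the family, 17 other S100 and fused-type S100 genes were listed. The array named 15 and 4 were measured, S100A3, S100A7A, S100A13 and S100A16. None differed 2-fold. The other 11, among them S100A12, S100B, S100G, S100Z and the skin barrier genes FLG, FLG2, CRNN, RPTN and TCHH, were below the floor in both arrays. Without the floor, 6 of the 15 differed at least 2-fold, S100B and S100G among them, but from signals of at most 29.3. Of all 19775 named genes without the floor, 2304 passed 2-fold upward and 2374 downward.

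Annexins are membrane-binding proteins that S100 dimers bridge, and 11 of the 12 listed were named and measured. None was at least 2-fold higher and 1, ANXA9, was at least 2-fold lower, against 7.78% and 7.49% of all measured genes. With 11 measured annexins, 1 call is not a result about them. ANXA2, the partner of S100A10, had 10431 in the stretched array, against 9291 in the non-stretched array in the brightest of its 3 bright probe sets, which differed by 0.14 to 0.17 on the log2 scale. A dim ANXA2 probe set differed by 0.76. ANXA1, the partner of S100A11, had 7454 in the stretched array, against 6635 in the non-stretched array (0.17). Both annexins were within 1 SD of 0 by either yardstick. The brighter S100A10 probe set, at 0.32, was inside the SD of 0.36 over all genes and outside the SD of 0.28 of the brightest 10%.

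The other annexins spread to both sides. ANXA9 had 299 in the stretched array, against 679 in the non-stretched array, a log2 difference of -1.18, and its other probe set differed by -0.99. ANXA10 had 4085 in the stretched array, against 2128 in the non-stretched array (0.94), and only 1.63% of the brightest 10% of genes were as high. It passed 2-fold when the arrays were centred on the hybridisation spike-ins. ANXA4 had log2 differences of -0.50 and -0.70 in its 2 probe sets. ANXA13 stood at -0.47.

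Of the 13 measured partner and target genes, none was called at 2-fold in the brightest probe set and 7 had a higher stretched signal. Over all measured genes, 7.78% passed 2-fold upward, 7.49% passed it downward and 50.5% had a higher stretched signal. EZR (ezrin), the linker of membrane and actin that S100P binds, had 6836 in the stretched array, against 5357 in the non-stretched array. Its 5 probe sets differed by 0.35, 0.49, 0.79, 0.95 and 1.24 on the log2 scale, listed from the brightest to the dimmest. CACYBP, the S100A6-binding adaptor of ubiquitin ligases, had 6018 in the stretched array, against 4139 in the non-stretched array (0.54), and its other probe sets differed by 0.31, 0.41 and 1.02. All probe sets of EZR and CACYBP thus had a higher stretched signal, as the brighter probe set of S100A6 did, while S100P, at -0.19, lay on the other side of 0 from EZR.

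MYH9, the heavy chain of the myosin that S100A4 binds, had 2696 in the stretched array, against 3099.7 in the non-stretched array (-0.20). IQGAP1, a scaffold bound by S100P, differed by -0.03 in its brightest probe set. AHNAK, the giant scaffold held by the S100A10 and annexin A2 complex, gave -0.28 in its brightest probe set and 0.76 in the other measured one, so its direction is not settled. TRPV5 and TRPV6, epithelial calcium channels that the S100A10 and annexin A2 complex carries to the membrane, had signals of 23.3 and 27.9 in the stretched array, against 42.4 and 41.7 in the non-stretched array, so their stretched signals were below the floor and the folds, at least 1.496 and 1.471 lower, are bounds. SGTA, a co-chaperone, stood at 0.81 and was the highest of these genes in its brightest probe set. The S100P-binding protein S100PBP, added after values were seen, differed by 0.37 and -0.18 in its 2 probe sets.

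**Figure D4:**
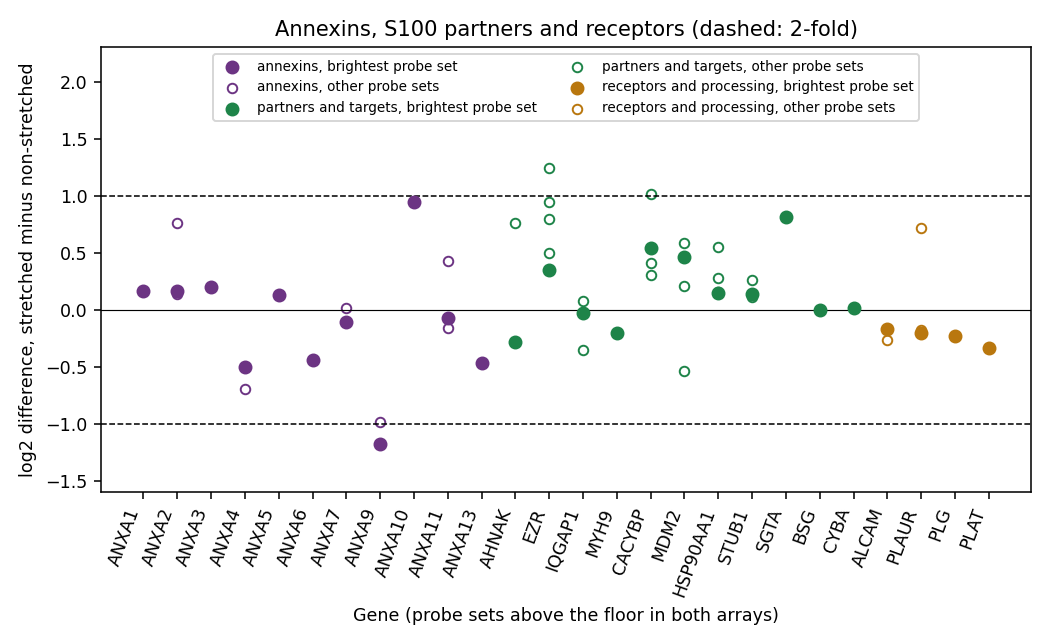
log2 difference (stretched minus non-stretched) of annexins, S100 partners and targets, and receptors and processing genes, for probe sets that exceed the floor in both arrays; filled points are the brightest probe set of each gene and open points its other probe sets. Only ANXA9 passes the 2-fold line with its brightest probe set, at -1.18, and the probe sets of EZR and CACYBP all lie above 0.

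AGER, TLR4 and CD36, which encode receptors for released S100 proteins, did not exceed the floor in either array. AGER, the gene of the receptor RAGE, had 3.71 in the stretched array, against 11.7 in the non-stretched array in its brightest probe set, and TLR4 had 13.02 in the stretched array, against 16.7 in the non-stretched array, all below the floor. CD36 was below the floor as well. The 4 measured genes of this list, ALCAM, PLAUR, PLG and PLAT, had log2 differences between -0.34 and -0.17 in their brightest probe sets, and none passed 2-fold. The dimmest PLAUR probe set went the other way, with 143 in the stretched array, against 87.2 in the non-stretched array (0.71). PLG lay near the floor, with 28.7 in the stretched array, against 33.5 in the non-stretched array.

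Markers were read to check the cells behind these values. All 8 epithelial markers were measured in both arrays, 4 above and 4 below 0 on the log2 scale. KRT7, KRT8, KRT18 and KRT19 differed by 0.09 to 0.22, EPCAM by -0.15, CDH1 by -0.38 (-0.90 in its other probe set), CLDN4 by -0.67 and CFTR by -1.43. Of the 8 neutrophil and monocyte markers named on the array, PTPRC, FCN1, TYROBP and S100A12 were below the floor in both arrays. CD14 had 55.1 in the stretched array, against 78.6 in the non-stretched array, ITGAM lay near the floor in both, and CSF3R exceeded it only in the non-stretched array, at 33.9. The list's summed signal was 1624 in the stretched array, against 1419 in the non-stretched array, most of it from LYZ, which airway glands also make. Without LYZ it was 161 in the stretched array, against 199 in the non-stretched array. Among fibroblast and mesenchymal markers, VIM was bright, with 8818 in the stretched array, against 8389 in the non-stretched array (0.07). With VIM the list summed to 9020 in the stretched array, against 8639 in the non-stretched array. Without VIM it summed to 202 in the stretched array, against 250 in the non-stretched array, so the direction of the sum depends on VIM. COL3A1, LUM, PDGFRB and THY1 were below the floor in both arrays. COL1A1 had 105 in the stretched array, against 126 in the non-stretched array, and another of its probe sets had 30.4 in the stretched array, against 174 in the non-stretched array (-2.52 on the log2 scale). A further COL1A1 probe set had 25.0 in the stretched array, below the floor, against 149 in the non-stretched array, at least 5.26-fold lower. Its remaining probe sets were below the floor in both arrays. DCN had 39.2 in the stretched array, against 45.1 in the non-stretched array. Of 9 squamous markers, 6 were measured: KRT13, SPRR3 and IVL were at least 2-fold higher in the stretched array, KRT14 was at least 2-fold lower, and KRT5, KRT4 and KRT1 were below the floor in both. Over all measured genes, 7.78% passed 2-fold upward and 7.49% downward. KRT13, SPRR3 and IVL were measured only through the stretched array and could not have come out lower. KRT10, the brightest of the list, had 5665 in the stretched array, against 5880 in the non-stretched array (-0.05). The list's summed signal was 6262 in the stretched array, against 6292 in the non-stretched array. Without KRT10 it was 597 in the stretched array, against 412 in the non-stretched array, so the direction of the sum depends on KRT10. The part of these squamous genes in the S100 differences was not tested.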

How the data were processed

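The deposited values are linear signal intensities, 1 for each of 54675 probe sets (62 of them controls) on each array, made by the authors from biotin-labelled cRNA of 6 µg total RNA, per the labels' protocols. Summarisation, scaling and software are not stated in the labels. The array medians differed by -0.02 on the log2 scale, so values were used as deposited. Probe sets with a single gene (41091) were named from the platform annotation, with symbols updated through RefSeq; 1801 with several genes and 11721 unnamed here entered no count.

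Signals were converted to log2 and set to a floor at the 50th percentile of each array. Each gene was read from its brightest probe set by mean log2 signal and called measured if above the floor in at least 1 array. A fold against a signal below the floor is a lower bound. Signals of different probe sets are not compared as transcript levels, and the 2 arrays limit the precision. The members and lists were chosen with earlier results of these data known. Named genes were all members, every measured other S100 gene, annexins past 2-fold, ANXA1, ANXA2, 7 direct partners and receptors, and the others with the largest differences; the neighbours along chromosome 1, S100PBP and further genes named only as below the floor or within a range fell outside this rule. Alternatives covered scaling, floor, probe set choice and fold. The counting was also run on simulated data without variation between cultures. That run required recovery only of the largest planted differences and of the SD put in. It does not vouch for calls at the 2-fold line. Python 3.11.15, numpy 2.4.6, pandas 2.3.3 and statsmodels 0.14.6 were used.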

Additional observations from a re-analysis of the deposited data

How the results depend on the processing

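No replicates exist, so each setting gives values without a test. No paired analysis was possible because each condition has 1 array. The count of S100 members at least 2-fold higher was 1 under every scaling, without the floor and with a floor at each array's 75th percentile. The count was 2 with probe sets averaged and at a 1.5-fold threshold, and 0 at a 3-fold threshold and with probe sets of suffix _x_at or _s_at left out, which leaves S100A4 with no probe set. No member was called lower under any setting. The members' median ranged from 0.22 to 0.66 on the log2 scale, the highest with probe sets averaged. Centring on the 75th percentile put the median of all genes at -0.10 and centring on the spike-ins at 0.12, shifts that move every gene alike. Of the single genes, S100A11 changed sign under the 75th-percentile centring and S100A6 moved to 1.08 with probe sets averaged; centring and floors could shift bright genes only a little by construction. Other S100 genes counted 6 without the floor, 1 at 1.5-fold and 0 otherwise. Annexin and partner genes counted 1 as deposited, 2 with spike-in centring, without the floor and without _x_at or _s_at probe sets, 3 at 1.5-fold and 0 at 3-fold. The genes behind a count of 2 were not the same. Spike-in centring added ANXA10 to ANXA9, and leaving out the floor added AGER, from signals below the floor in both arrays. Without _x_at or _s_at probe sets ANXA9 had none left, and the calls came from the dimmest probe sets of EZR (1.24) and CACYBP (1.02). Of all 13453 measured genes, 1046 were higher and 1008 lower as deposited. These counts were 2405 and 2249 at 1.5-fold, 386 and 378 at 3-fold, and 1317 and 830 with spike-in centring. They were 2304 and 2374 of 19775 genes without the floor, and 907 and 798 of 10516 without _x_at or _s_at probe sets. With probe sets averaged they were 1018 and 881 of 13473. No depth applies to arrays: probe sets near the floor carry the least certain sizes.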

Other observations

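The dimmest probe sets of S100A10, ANXA2, EZR and CACYBP had higher log2 differences than the brightest probe set of the same gene, genes picked after the values were seen. The dimmer probe sets of S100A13 and S100PBP went the other way, at 0.52 against 0.58 and at -0.18 against 0.37. Across the array, 807 genes had a brightest probe set among the brightest 10% of genes and another above the floor in both arrays. The absolute difference was larger in the dimmest probe set in 587 of them (72.7%), with a median of 0.40, against 0.22 in the brightest, and the sign was the same in 614. Where the dimmest probe set had a mean log2 signal under 7, it was larger in 157 of 228 genes (68.9%) and the sign was the same in 148. The part of signal level in the S100A10 difference was not tested.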
